A study of Rattus norvegicus and Mus musculus with 34 samples.

Results

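The genes described here are 10 that multinucleated osteoclasts need for fusion and bone resorption: Acp5, Ctsk, Nfatc1, Tcirg1, Ostm1, Dcstamp, Ocstamp, Atp6v0d2, Calcr and Oscar. They were taken by name from a table of 20022 rat genes and a table of 51912 mouse genes, and 9 of the 10 were found in the rat table by symbol. Dcstamp was found there by its gene ID, 103690326, because the rat table listed it under a provisional symbol. All 10 were listed for the mouse.

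The rat samples were healing tissue from a periodontal bone defect in the mandible of wild-type male Sprague-Dawley rats, sequenced as a mixture of all its cells. In the sensory nerve+ group only the defect was made, and in the sensory nerve− group the inferior alveolar nerve, which carries sensation from the lower jaw, was also cut and a segment of it removed. Both groups were sampled on days 3, 7 and 14, with 4 rats in each group and day except 3 in the sensory nerve+ group of day 3, which makes 23 rats. The mouse samples were cultures of RAW264.7, a single macrophage cell line, held for 6 h with bacterial lipopolysaccharide (LPS) in 6 cultures or with LPS and 10 nM calcitonin gene-related peptide (CGRP), a neuropeptide of sensory nerves, in 5 cultures.

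Osteoclasts arise when precursors of the macrophage lineage receive the cytokines M-CSF and RANKL, switch on the transcription factor NFATc1 and fuse into giant cells. The fused cell seals off a patch of bone, pumps protons onto it through a vacuolar ATPase, and digests the exposed collagen with cathepsin K. In a healing jaw defect these cells remodel the newly formed bone, and their number is limited by signals from osteoblasts and immune cells. Whether the sensory nerve also bears on their genes is the question asked here.

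By role, Nfatc1 encodes the main transcription factor of the osteoclast programme, and Oscar encodes an immunoglobulin-like receptor for collagen that costimulates it. Dcstamp and Ocstamp encode membrane proteins required for fusion of the precursors, and Atp6v0d2 encodes an osteoclast-rich form of the d subunit of the vacuolar ATPase that is also needed for fusion. Tcirg1 encodes the a3 subunit of the same proton pump, and Ostm1 the partner of the lysosomal chloride channel that balances the pumped charge. Acp5 encodes tartrate-resistant acid phosphatase (TRAP), the enzyme stained to count osteoclasts, Ctsk encodes cathepsin K, and Calcr the calcitonin receptor, which belongs to the same receptor family as the CGRP receptor and is expressed late in osteoclast maturation.

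Because the genes moved together from rat to rat, the 250 bases before their starts were searched for the letters of factors known in osteoclasts. Promoter sequences of RefSeq (assembly GRCr8, matched by gene ID) were at hand for 7 of the 10 genes, in 8 windows, and Nfatc1, Dcstamp and Atp6v0d2 had none. The NFAT letters GGAAA, searched on both strands, were found in 4 of the 7 genes, beside 56.9% of the 33469 promoters in the table. The PU.1 letters GAGGAAG were found in 1 gene, Ctsk, beside 10.2% of all promoters. The AP-1 letters TGANTCA and the E-box letters CACGTG of MITF were found in 0 of the 7 genes, beside 6.34% and 5.59% of all promoters. The share of genes with NFAT letters was thus close to that of all promoters, and the 4 genes were Acp5, Ctsk, Ocstamp and Oscar. The windows of the 3 of them with a single listed start are shown 5′ to 3′ on the gene's strand, with the matched letters in capitals, where TTTCC is GGAAA and CTTCCTC is GAGGAAG read from the other strand.
Ctsk, chr2:185747298-185747547, plus strand: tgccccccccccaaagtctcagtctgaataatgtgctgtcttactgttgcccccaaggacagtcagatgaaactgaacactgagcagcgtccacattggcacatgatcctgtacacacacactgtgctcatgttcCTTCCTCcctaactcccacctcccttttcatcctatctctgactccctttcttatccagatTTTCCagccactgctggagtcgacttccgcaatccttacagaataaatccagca
Ocstamp, chr3:174560908-174561157, minus strand: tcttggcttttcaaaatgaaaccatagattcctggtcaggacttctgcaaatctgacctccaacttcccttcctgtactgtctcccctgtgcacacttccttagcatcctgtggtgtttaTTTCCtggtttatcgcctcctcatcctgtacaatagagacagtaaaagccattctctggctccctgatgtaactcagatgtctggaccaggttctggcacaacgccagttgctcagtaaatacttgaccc
Oscar, chr1:74522633-74522882, plus strand: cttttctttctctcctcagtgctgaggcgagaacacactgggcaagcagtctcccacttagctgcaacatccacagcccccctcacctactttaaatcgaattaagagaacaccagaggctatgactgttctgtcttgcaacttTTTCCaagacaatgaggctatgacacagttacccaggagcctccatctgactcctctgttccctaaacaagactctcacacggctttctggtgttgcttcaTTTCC

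In Ctsk the NFAT letters began 54 bases and the PU.1 letters 115 bases before the start, and in Ocstamp the NFAT letters began 130 bases before it. Oscar held them 106 bases and 5 bases before the start. These matches describe the letters in the windows, and binding was not measured.

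Levels below are CPM, counts scaled to the size of each library with TMM factors over all 23 rats (all 11 cultures for the macrophages), so that they can be compared between rats but not between genes, whose lengths differ. Each rat had 14854598 to 18742423 counts, and each macrophage culture 55614185 to 71538840 reads. The genes were measured with unequal depth. Ctsk had 2386 to 169893 counts per rat, whereas Calcr had 5 to 537 and Ocstamp 17 to 589, so that the lowest values of the last 2 rest on few reads. All 10 genes passed the filter on low counts in every comparison of rats.

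Some rat libraries stood apart in the tissue they held. The haemoglobin and other erythroid genes took 39.0% of the counts of sensory nerve− replicate 3 of day 14, the largest share of the 23 rats, and its TMM factor was the smallest at 0.496. The 8 skeletal muscle genes summed to 20.3 to 466.4 CPM in the 7 rats of day 3, to 1868 to 35960 CPM in the 8 rats of day 7, and to 218.3 to 26460 CPM in those of day 14. The sensory nerve− rats of day 7 came in a separate table without any sensory nerve+ rat, so that on that day table and transection cannot be told apart. Nor can table and day be told apart where these rats are compared with sensory nerve− rats of day 3 or day 14. In bulk tissue, fewer osteoclasts and less RNA per osteoclast also cannot be told apart.

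The first question was whether loss of the sensory nerve raised the osteoclast genes, and on which day. On day 14 all 10 genes had a higher fitted level in the sensory nerve− group, by 1.45-fold for Ostm1 to 4.35-fold for Acp5, and none passed the test after adjustment. The median log2 fold change of the 10 genes was 1.5, where that of all 14610 genes tested was 0.03 and 53.4% of them were above 0. The 10 genes varied together from rat to rat (median Pearson's r of 0.885 between pairs, group means removed). Counts of them, here and below, are therefore not separate results.

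Acp5, the gene of TRAP, had 360.7, 724.8, 378.2 and 274.7 CPM in the 4 sensory nerve+ rats of day 14. In the sensory nerve− rats it had 1694, 2637, 208.1 and 3113 CPM. Thus 3 of the 4 denervated rats lay above every rat with an intact nerve and replicate 3 lay below all of them, so that the groups overlapped. The groups differed by 2.12 on the log2 scale (SE 0.717, adjusted p = 0.519 from edgeR's quasi-likelihood test with Benjamini-Hochberg adjustment over all genes tested).

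Ctsk, the gene of the collagen-degrading protease, had 1486, 1938, 1363 and 917.2 CPM in the sensory nerve+ rats and 3731, 7548, 703.4 and 7031 CPM in the sensory nerve− rats of day 14. The groups differed by 1.72 on the log2 scale (SE 0.655, edgeR adjusted p = 0.519). As for Acp5, 3 denervated rats lay above the sensory nerve+ rats and replicate 3 was the lowest of all 8.

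The fusion genes showed the same split. Dcstamp had 15.1, 23.7, 19.3 and 13.0 CPM with the nerve and 45.1, 68.1, 9.06 and 102.7 CPM without it, which on the log2 scale is a difference of 1.64 (SE 0.597, edgeR adjusted p = 0.519). Ocstamp had 7.87, 9.36, 7.24 and 9.23 CPM against 15.2, 33.2, 3.20 and 37.4 CPM, which on the log2 scale is a difference of 1.38 (SE 0.61, edgeR adjusted p = 0.519). Atp6v0d2 had 28.1, 33.7, 33.6 and 21.7 CPM against 91.4, 100.2, 17.9 and 156.0 CPM, which on the log2 scale is a difference of 1.62 (SE 0.53, edgeR adjusted p = 0.519). In each of these 3 genes the sensory nerve+ rats lay within a narrow band and 3 denervated rats lay above it.

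The groups also overlapped for the transcription factor and the receptor. Nfatc1 had 40.3 to 66.9 CPM in the sensory nerve+ rats and 47.7 to 121.4 CPM in the sensory nerve− rats, which on the log2 scale is a difference of 0.78 (SE 0.278, edgeR adjusted p = 0.519). Oscar had 12.9 to 48.6 CPM against 24.3 to 129.8 CPM, which on the log2 scale is a difference of 1.24 (SE 0.534, edgeR adjusted p = 0.519). Of the genes of the proton pump and its partner channel, Tcirg1 stood at 1.12 (SE 0.401) and Ostm1 at 0.53 (SE 0.279), neither past the adjusted threshold. Calcr, the late marker, had 5.47, 7.66, 3.1 and 3.5 CPM with the nerve and 15, 30.3, 1.77 and 17.8 CPM without it (log2 fold change 1.70, SE 0.697, edgeR adjusted p = 0.519), with replicate 3 again the lowest of all 8 rats.

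**Figure D1:**
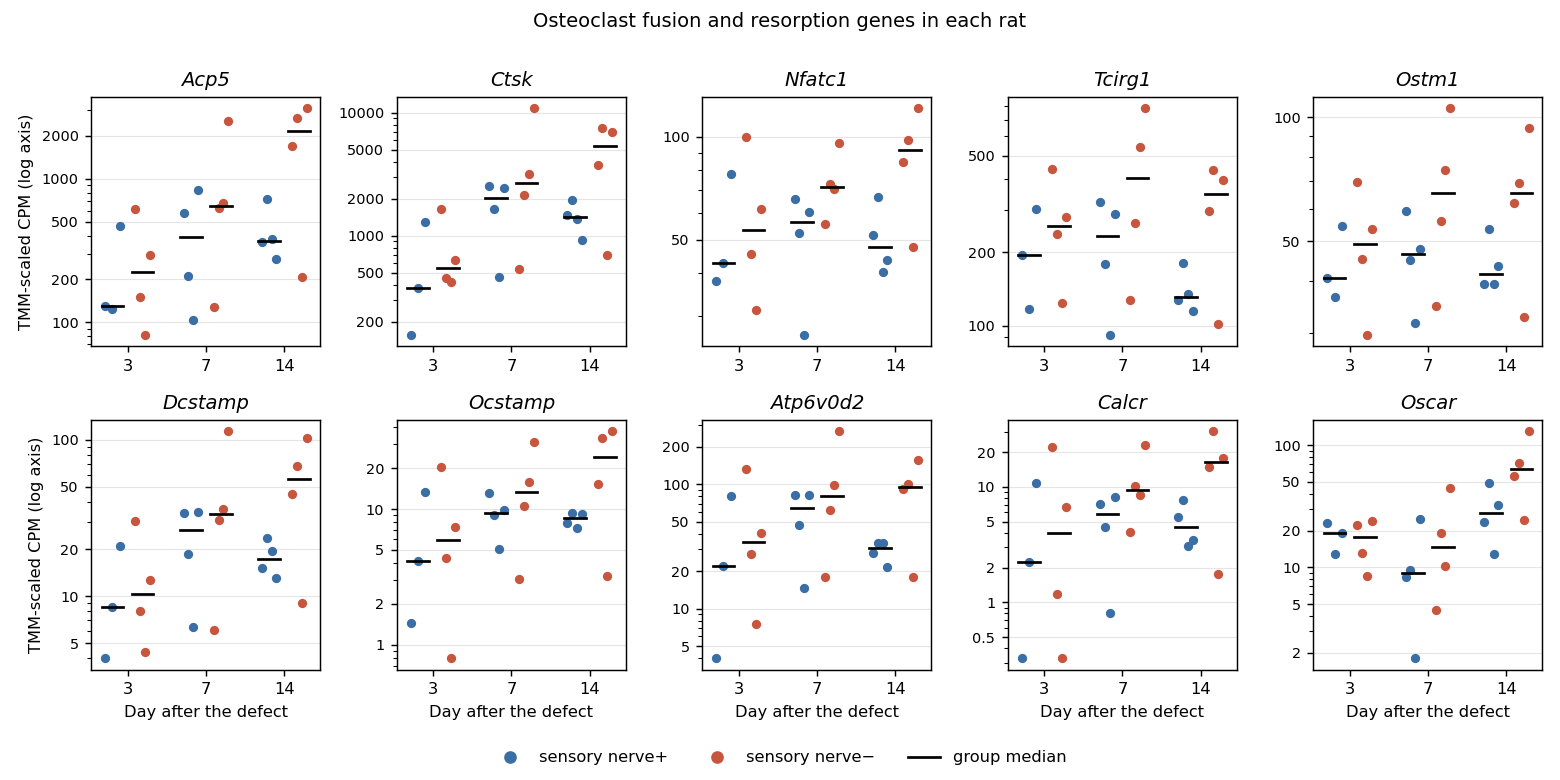
TMM-scaled CPM of each gene in each of the 23 rats on a log axis, by day after the defect, with sensory nerve+ rats in blue, sensory nerve− rats in red and bars for the group medians. On day 14, 3 of the 4 sensory nerve− rats lay above the sensory nerve+ rats for Acp5 (1694 to 3113 CPM against 274.7 to 724.8 CPM), and the remaining one lay at 208.1 CPM.

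At an unadjusted p under 0.05, 8 of the 10 genes were higher on day 14, where 4.35% of all genes tested were higher at that p and 0.0% passed after adjustment. The 2 others were Ocstamp and Ostm1, and the 8, which varied together, are not 8 separate results. With library totals in place of TMM 2 of the 10 stood at that p (median 1.17), and with all 23 rats in 1 fit 3 did (median 1.52). DESeq2 called 0 of the 10 genes and 95 of all genes. The groups overlapped for each of the 10 genes, and 1.41% of all genes had every sensory nerve− rat above every sensory nerve+ rat.

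These values rest on few rats. Replicate 3 of the sensory nerve− group of day 14 was the lowest of its group for 10 of the 10 genes, and without it the median log2 fold change was 1.83, with 10 of 10 genes at an unadjusted p under 0.05 and 0 called. Without sensory nerve− replicate 4 the median was 1.11 with 2 genes at that p, without replicate 2 it was 1.21 with 2 genes, and without sensory nerve+ replicate 4, 3 or 1 there were 1, 4 and 3 genes.

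Other tissues moved with the osteoclast genes on day 14. The 8 skeletal muscle markers, with Acta1 and Ckm among them, summed to 26460, 243.5, 13570 and 17160 CPM in the sensory nerve+ rats and to 218.3, 1275, 7236 and 293.4 CPM in the sensory nerve− rats. The rat with the least muscle in the sensory nerve+ group, replicate 2, had the highest level of 10 of the 10 osteoclast genes in that group, and the rat with the most muscle in the sensory nerve− group, replicate 3, had the lowest. The other extremes did not match. The sensory nerve+ rat with the most muscle, replicate 1, was the lowest for 0 of the 10 genes. The sensory nerve− rat with the least muscle, also replicate 1, was the highest for 0 of the 10. The 6 Schwann cell markers summed to 363.7 to 2278 CPM with the nerve and 120.8 to 299.8 CPM without it, with no overlap. The 8 osteoblast markers summed to 7395 to 19360 CPM and 11600 to 43570 CPM, and the 10 macrophage markers, 9 of which were detected in the sensory nerve+ rats, to 538.6 to 1230 CPM and 721.5 to 1765 CPM. All 5 erythroid markers and all 5 lymphocyte markers tested had a higher fitted level without the nerve (median log2 fold changes 1.97 and 0.73), as had 3 of 4 cartilage markers (median of the 4 1.35), with 0 called. The part of these tissues in the difference was not tested.

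On day 7 the 10 genes were again all higher in the fit of the sensory nerve− group, with log2 fold changes of 0.52 to 1.24 and a median of 0.98, where the median of all 14716 genes was −0.01 and 48.8% of them were above 0. None had a p under 0.05 even before adjustment (edgeR adjusted p = 1.0), where 1.46% of all genes had such a p and 0.0% passed after adjustment. DESeq2 called 0 of the 10. Without sensory nerve− replicate 4 the median of the 10 genes was 0.14, and Acp5, Dcstamp and Oscar stood at 0.14, 0.06 and 0.02, so that most of the median difference on day 7 rested on 1 rat. No single omission took Calcr below 0.56, Tcirg1 below 0.51, Nfatc1 below 0.30 or Ostm1 below 0.26. Without sensory nerve− replicate 1 the median was 1.31, with 3 genes at an unadjusted p under 0.05. Ctsk ranged from 466.6 to 2559 CPM in the sensory nerve+ rats and from 537.7 to 10920 CPM in the sensory nerve− rats. The spread came from the same animals in each gene: sensory nerve− replicate 4 was the highest and replicate 1 the lowest of its group for 10 of 10 genes, and sensory nerve+ replicate 3 was the lowest of its group for 10 of 10. Sensory nerve− replicate 1 held the most muscle RNA of these rats, 35960 CPM, and replicate 4 the least, 1868 CPM, whereas in the sensory nerve+ group the lowest rat for the osteoclast genes, replicate 3, also held the least muscle RNA, 5491 CPM.

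On day 3 the differences were small against their errors. The median log2 fold change was 0.31, 9 of the 10 genes were higher in the fit, as were 48.1% of all genes, and Oscar was lower at −0.14 (SE 0.376). The largest were those of Calcr at 0.72 (SE 1.49) and Atp6v0d2 at 0.52 (SE 1.14), with edgeR adjusted p = 1.0 and p from 0.429 to 0.784 before adjustment. At an unadjusted p under 0.05 stood 0 of the 10 genes and 0.83% of all genes, 0.0% of all genes passed after adjustment, and DESeq2 called 0. Without sensory nerve− replicate 1, the log2 fold changes of Acp5, Ctsk and Ocstamp were −0.46, −0.27 and −0.60, and without sensory nerve+ replicate 1 they were −0.07, −0.09 and −0.11, so that the sign on this day depended on single rats.

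With all 23 rats in a fit of nerve and day, the sensory nerve− group stood higher for the 10 genes by a median log2 fold change of 0.93, from 0.44 (SE 0.187) for Ostm1 to 1.23 (SE 0.528) for Acp5 and 1.23 (SE 0.6) for Calcr. Tcirg1 had the smallest p of the 10, with 0.85 on the log2 scale (SE 0.306, edgeR adjusted p = 0.86). At an unadjusted p under 0.05 stood 7 of the 10 genes, where 3.13% of all genes were higher at that p, and 0.0% of the 15858 genes passed after adjustment. Of all genes, 51.2% had a fitted difference above 0. The 7 genes, which varied together, are not 7 separate results. DESeq2 also called 0 of the 10. Leaving out the 8 rats of day 7, whose table differs between the groups, left a median of 0.96, with 1 gene at that p. Library totals left 3 genes at that p (median 0.79), and leaving out sensory nerve− replicate 1 of day 3, replicate 4 of day 7 or replicate 4 of day 14 left 1, 2 and 3 genes (medians 0.81, 0.71 and 0.8). Without other single rats the count lay between 4 and 9. The medians of the single days stood at 0.31, 0.98 and 1.5. The test of nerve by day gave p from 0.342 to 0.817 for the 10 genes (edgeR adjusted p = 0.998), so that a difference of the nerve effect between days was not detectable. It called 0.0% of all genes, and at an unadjusted p under 0.05 stood 0 of the 10 and 3.0% of all genes.

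**Figure D2:**
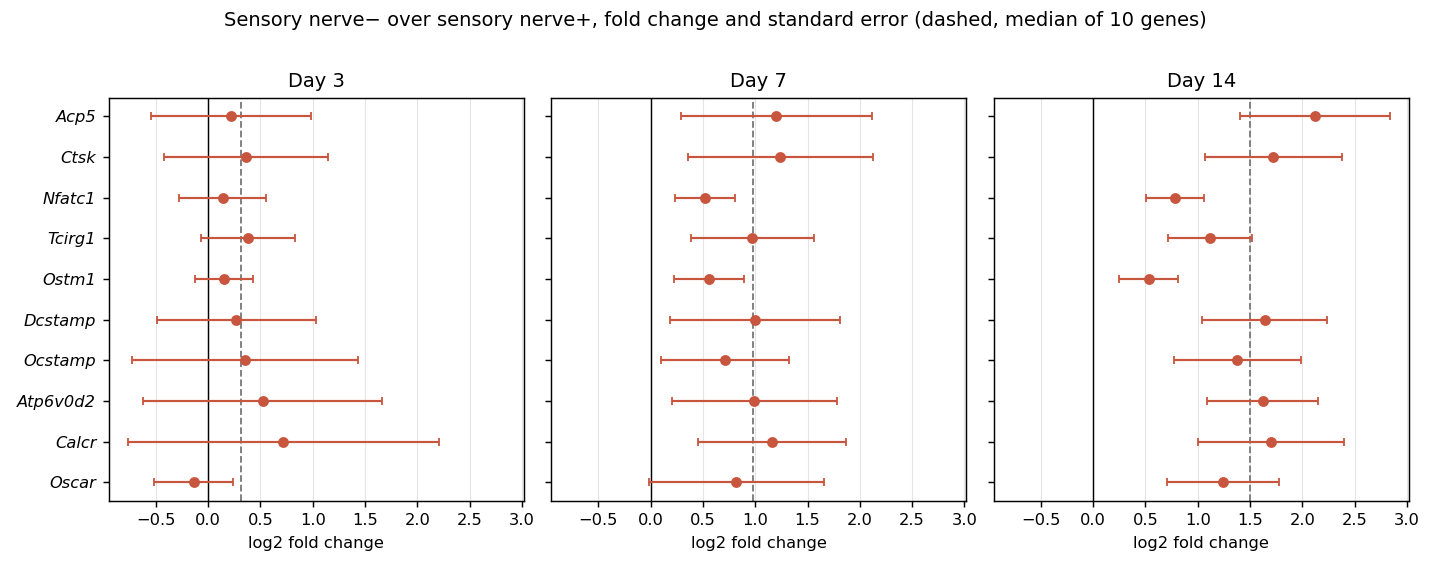
log2 fold change of each gene, sensory nerve− over sensory nerve+, on days 3, 7 and 14, with bars of 1 standard error from edgeR and a dashed line at the median of the 10 genes. The median lay at 0.31 on day 3, 0.98 on day 7 and 1.5 on day 14, and the bars of all 10 genes on day 3 cross 0.

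Other genes of the osteoclast pathway followed the same direction on day 14 without passing the adjusted test. Of 17 signalling and transcription factor genes, 16 were higher in the fit with a median log2 fold change of 0.58, and 6 had an unadjusted p under 0.05. The smallest p belonged to Src, a kinase of the sealing zone (log2 fold change 0.92, SE 0.263), Tnfrsf11a, which encodes the RANKL receptor RANK (1.51, SE 0.458), and Prdm1, which encodes a repressor of the inhibitors of osteoclast formation (1.09, SE 0.347), each with an edgeR adjusted p = 0.519. Of 14 other genes of resorption, 13 were higher with a median of 1.03, led by Itgb3, the integrin subunit that anchors osteoclasts to bone (1.95, SE 0.377, edgeR adjusted p = 0.519). Itgb3 had 27.1 to 50.3 CPM in the sensory nerve+ rats and 72.8 to 254.5 CPM in the sensory nerve− rats, without overlap. The same held for 1.41% of all genes. Plekhm1, a lysosome trafficking gene, and Clcn7, the chloride channel that Ostm1 partners, had log2 fold changes of 0.70 and 1.09. All 16 vacuolar ATPase subunits that cells use generally were higher, with a median of 0.68. The 5 repressors of osteoclast differentiation, such as the RANKL decoy receptor Tnfrsf11b (0.22, SE 0.407), had a median of 0.20.

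The next question was how the genes changed as healing went on. Each rat was sampled on 1 day only, but the comparisons share day groups, so that they are not independent of each other or of those above. In the sensory nerve− group, Oscar and Ctsk rose from day 3 to day 14, and the 8 other genes did not pass the test. Called were 2 of the 10 genes, where 8.89% of the 14449 genes tested were called as higher and 23.5% were called in all. In the sensory nerve+ group 0 of the 10 were called between the same days, where 5.78% of all genes were. At an unadjusted p under 0.05 stood 0 of the 10 there and 28.2% of all genes, and DESeq2 called 0. Without the nerve 4 of the 10 and 38.8% of all genes stood at that p.

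Oscar had 22.1, 13.1, 8.44 and 23.9 CPM in the denervated rats of day 3 and 55.9, 70.8, 24.3 and 129.8 CPM in those of day 14, without overlap. It rose by 2.01 on the log2 scale (SE 0.514, edgeR adjusted p = 0.0271). Of all genes, 10.6% had every rat of day 14 above every rat of day 3 in this group, and Oscar was the 1 of the 10 that did. In the sensory nerve+ rats Oscar had 23.3, 13.0 and 19 CPM on day 3 and 23.5, 48.6, 12.9 and 32.3 CPM on day 14 (log2 fold change 0.69, SE 0.442, edgeR adjusted p = 0.347).

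Ctsk had 1658, 457.3, 419.5 and 636.3 CPM in the denervated rats of day 3, and it rose to the day 14 values given above by 2.54 on the log2 scale (SE 0.753, edgeR adjusted p = 0.0435), although the groups overlapped through replicate 3 of day 14. Acp5, with 614.7, 150.5, 81.4 and 295.5 CPM on day 3, had 2.70 on the log2 scale (SE 0.867, edgeR adjusted p = 0.0556), and Dcstamp one of 1.99 (SE 0.768, edgeR adjusted p = 0.0943). Nfatc1, Tcirg1 and Ostm1 had log2 fold changes of 0.52, 0.15 and 0.34, none past the threshold.

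These calls moved with single rats. Without replicate 3 of day 14 edgeR called 4 of the 10 genes. Without day 14 replicate 4, day 3 replicate 2 or day 3 replicate 3 it called 0, and without any one of the other 4 rats it called 1. DESeq2 called 4, scaling by the library total 0, and no filter on low counts 1. Over the same days in the same rats, the muscle markers rose too, with 3 of 7 tested called higher and a median log2 fold change of 3.65, as did 1 of 8 osteoblast markers (median 1.28), and of 9 macrophage markers 1 was called higher and 2 lower (median 0.05). Tooth and oral epithelium markers fell, with 3 of 3 and 3 of 4 tested called lower (medians −11.83 and −6.15), and 2 of 6 neutrophil and 2 of 5 lymphocyte markers were called higher (medians 2.39 and 2.81). The part of these tissues was not tested. Among the other resorption genes Car2, the carbonic anhydrase that supplies the protons, rose by 1.70 (SE 0.506, edgeR adjusted p = 0.0439), the only one of 14 called in this comparison. Trem2, a receptor of macrophages and osteoclast precursors, fell by 1.52 on the log2 scale (SE 0.384, edgeR adjusted p = 0.0261), and Tnfrsf11b fell by 2.08 (SE 0.566, edgeR adjusted p = 0.0331).

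From day 3 to day 7 none of the 10 genes was called in either group, where 6.67% of all genes were called with the nerve and 10.5% without it, and DESeq2 called 1 of the 10 without the nerve. Ctsk had the largest differences, with log2 fold changes of 1.59 (SE 0.837, edgeR adjusted p = 0.295) with the nerve and 2.39 (SE 0.884, edgeR adjusted p = 0.12) without it. At an unadjusted p under 0.05 stood 0 of the 10 and 24.8% of all genes with the nerve, and 1 of the 10 and 28.8% of all genes without it. From day 7 to day 14 none of the 10 was called either (0.0202% and 0.0138% of all genes), at an unadjusted p under 0.05 stood 0 and 1 of them (9.42% and 23.5% of all genes), and DESeq2 called 0. Over that step Oscar stood apart, with log2 fold changes of 1.44 (SE 0.705) and 1.86 (SE 0.726), whereas Atp6v0d2 had −0.92 (SE 0.47) and −0.28 (SE 0.815). Without the nerve, both steps set the separate table of day 7 against another, so that table and day cannot be told apart there.

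The balance between the genes within a rat was then compared, since a ratio of 2 genes in one library does not depend on the scaling between libraries. There are 45 pairs among the 10 genes, and the pairs described were chosen after their values were seen, so that no test is given. Between day 7 and day 14, with both nerve groups together, the 8 rats of one day did not overlap the 8 of the other for 4 of the 45 ratios (8.89%), where this held for 0.796% of the ratios among 14594 genes with counts in every rat. Of the 4, 3 share Atp6v0d2 and 2 share Oscar, so that they are not 4 separate results. They were Acp5 to Atp6v0d2, Dcstamp to Atp6v0d2, Oscar to Atp6v0d2 and Oscar to Tcirg1, and all 4 were higher on day 14.

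The Acp5 to Atp6v0d2 ratio had a median of 7.11 on day 7 (4.48 to 10.3) and of 15.7 on day 14 (11.3 to 26.3). The ratio of Dcstamp to Atp6v0d2, both needed for fusion, was 0.42 (0.34 to 0.491) on day 7 and 0.588 (0.493 to 0.702) on day 14. The ratio of Oscar to Atp6v0d2 was 0.185 (0.103 to 0.304) on day 7 and 0.834 (0.385 to 1.49) on day 14, and that of Oscar to Tcirg1 was 0.0439 (0.0188 to 0.0859) and 0.214 (0.0955 to 0.327). Relative to Atp6v0d2, the genes of TRAP, of the fusion protein DC-STAMP and of the collagen receptor thus stood higher on day 14 than on day 7, in rats with and without the nerve. Without the nerve, table and day cannot be told apart here, whereas the sensory nerve+ rats of both days shared a table. On day 3 the ratios to Atp6v0d2 were spread more widely, for example from 4.62 to 32.8 for Acp5, and the highest belonged to sensory nerve+ replicate 1, in which Atp6v0d2 had 3.99 CPM.

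**Figure D3:**
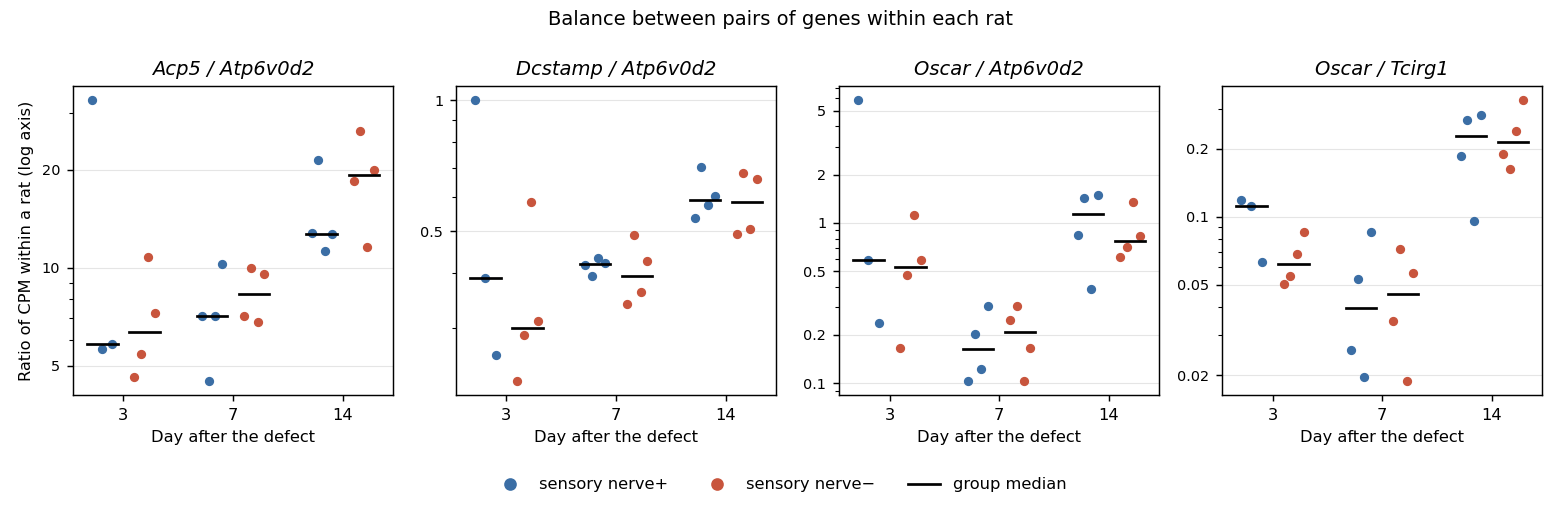
Ratio of the CPM of 2 genes within each of the 23 rats on a log axis, by day, for Acp5, Dcstamp and Oscar to Atp6v0d2 and Oscar to Tcirg1, with sensory nerve+ rats in blue, sensory nerve− rats in red and bars for the group medians. Every rat of day 14 lies above every rat of day 7 in each panel, and the 2 nerve groups of a day overlap.

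Between the nerve groups, 0 of the 45 ratios separated sensory nerve− from sensory nerve+ rats on day 3, on day 7 or on day 14. Among all those genes, 1.72%, 0.865% and 3.33% of the ratios did, so that the 0 lies near these shares. These splits set 4 rats against 3 or 4, whereas the split of day 7 and day 14 set 8 against 8. The counts by nerve and by day can therefore not be compared with each other. On day 14 the Acp5 to Atp6v0d2 ratio had a median of 12.8 (11.3 to 21.5) with the nerve and 19.2 (11.6 to 26.3) without it, the Ctsk to Acp5 ratio was 3.47 (2.67 to 4.12) and 2.56 (2.2 to 3.38), and the Dcstamp to Ocstamp ratio was 2.22 (1.41 to 2.67) and 2.79 (2.05 to 2.96). From day 3 to day 14, 3 of the 45 ratios did not overlap (6.67%), which is below the 9.29% of all ratios. They were those of Acp5, Ctsk and Dcstamp to Tcirg1, all higher on day 14. Acp5 to Tcirg1 had a median of 1.06 (0.634 to 1.56) on day 3 and 3.42 (2.04 to 7.84) on day 14, and Ctsk to Tcirg1 of 3.25 (0.798 to 4.27) and 11.2 (6.9 to 17.7), and Dcstamp to Tcirg1 of 0.0454 (0.0204 to 0.0734) and 0.137 (0.0888 to 0.259). From day 3 to day 7, 2 of the 45 did not overlap (4.44%, beside 9.19% of all ratios), those of Ctsk and Dcstamp to Oscar, with medians of 35.0 and 0.611 on day 3 and 209.0 and 2.25 on day 7.

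Rats of the same group and day differed widely in these genes. Over the 23 rats the highest level exceeded the lowest by 92.8-fold for Calcr, 72.3-fold for Oscar, 70.0-fold for Ctsk and 66.7-fold for Atp6v0d2, and by 8.56-fold for Tcirg1, 4.6-fold for Nfatc1 and 3.55-fold for Ostm1. The SD of log2 CPM within groups was 1.70 for Calcr, 1.45 for Atp6v0d2 and 1.39 for Acp5, where the median gene had 0.423, and it was larger than that of 96.5%, 94.1% and 93.4% of all genes. The 3 genes with the smallest spread were Ostm1, Nfatc1 and Tcirg1 (SD 0.491, 0.532 and 0.83).

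The genes varied together. With the mean of each group and day removed, the 45 pairs had a Pearson's r between 0.629 and 0.976 over the 23 rats, with a median of 0.885, and without the 2 rats farthest from the median the range was 0.559 to 0.962. The tightest pairs were Ctsk with Dcstamp (r = 0.976, Spearman's rho = 0.956) and Acp5 with Dcstamp (r = 0.971, rho = 0.962), a secreted enzyme with a fusion gene in each case. The loosest were those of Oscar, such as Oscar with Ocstamp (r = 0.629, rho = 0.67), and Oscar had an r of 0.765 with the mean of the 9 others, where the rest had 0.898 to 0.981. The values of a rat come from one library with one scaling factor, which pairs of genes share, and these correlations are given as a description.

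**Figure D4:**
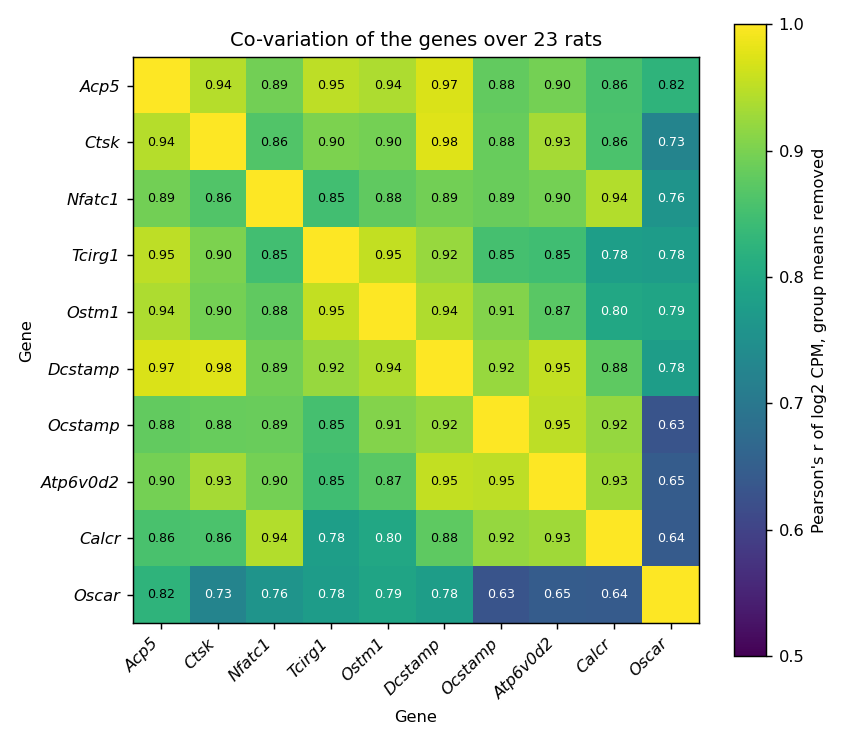
Pearson's r between each pair of the 10 genes over 23 rats, from log2 CPM with the mean of each group and day removed, with the colour scale running from 0.5 to 1. Values lie between 0.629 and 0.976, and the row of Oscar holds the lowest.

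Of 15848 other genes, those that followed the mean of the 10 most closely included Frrs1 (r = 0.971), St18 (0.970), Ckb (0.968), Mmp9 (0.968), LOC100302372 (0.966), Slc4a2 (0.964), Cd84 (0.963), Nyap2 (0.962) and Cdh17 (0.957), each over 23 rats with group means removed. Mmp9 encodes a matrix metalloproteinase that osteoclasts secrete, Ckb the brain-type creatine kinase, and Slc4a2 an anion exchanger that removes bicarbonate from the resorbing cell. Tnfrsf11a stood at rank 11 (r = 0.956), and Atp6v1h, Siglec15 and Atp6v1c1 at ranks 12 to 14, with r from 0.954 to 0.952. Other genes of the same pathway lists followed the mean less or not at all. Among them were Trem2 (r = 0.493), Car2 (0.324), Fos (0.323), Sh3pxd2a (−0.121) and Atp6v0a2 (−0.222). Of the markers of other tissues, the summed macrophage markers had an r of 0.773 with the mean of the 10, osteoblast markers 0.444, neutrophil markers 0.413, erythroid markers 0.073, Schwann cell markers −0.06 and muscle markers −0.348.

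The last question was whether CGRP acted on these genes in the macrophage line itself. After 6 h it did not change any of them detectably. Of the 10 genes, 8 were tested, with log2 fold changes of LPS+CGRP over LPS from −0.06 to 0.00, a median of −0.03 and adjusted p from 0.52 to 0.999 (limma on log2 of CPM plus 0.5, Benjamini-Hochberg adjustment), where 0.0222% of the 13492 genes tested were called. At an unadjusted p under 0.05 stood 0 of the 8 and 10.1% of all genes. edgeR and DESeq2 on the reads recovered from the deposited values called 0 of the 8 as well, and 0 and 73 of all genes.

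Acp5 had a median of 54.5 CPM in the 6 LPS cultures (53.5 to 57.0) and 55.5, 50.5, 55.2, 52.5 and 50.2 CPM in the 5 LPS+CGRP cultures. The groups differed by −0.05 on the log2 scale (95% confidence interval −0.11 to 0.00, limma adjusted p = 0.52). Nfatc1 had a median of 403.0 CPM (391.1 to 411.1) without and 397.5, 416.7, 394.6, 400.0 and 400.0 CPM with CGRP, which on the log2 scale is a difference of 0.00 (95% confidence interval −0.03 to 0.03, limma adjusted p = 0.999). Ocstamp had the widest interval, from −0.13 to 0.01 around −0.06, and no interval reached a change of more than 0.13 on the log2 scale. The deposited values were also taken without TMM and without division by library totals. The 8 log2 fold changes were then all above 0, from 0.06 to 0.12, and 0 were called. The deposited factor tended to be larger in deeper runs, with 0.883 at 27907852 reads (LPS replicate 1, run 1) and 1.14 at 35854169 reads (LPS replicate 6, run 1). Differences in depth are therefore not removed from these fold changes. The labels do not say that the cultures were grown separately, so that the spread behind these p-values may be technical.

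The 2 genes that were not tested were at or near 0. Calcr had 0 reads in all 11 cultures, which allows up to 0.0419 to 0.0539 CPM per culture if 3 reads are taken as the limit. Oscar had 0 to 8 reads per culture (0 to 0.112 CPM). Itgb3, the integrin of the mature osteoclast, lay between 0 and 0.051 CPM. Dcstamp (34.0 to 37.4 CPM with LPS) and Tcirg1 (521.1 to 578.7 CPM with LPS) were read in every culture, and the labels name no RANKL among the additions. Of the 10 macrophage markers, only 5 passed the filter on low values in the cultures. Cd68 (761.4 to 792.7 CPM), Csf1r, Itgam and Adgre1 were high with LPS, and Cd163 and Marco were at 0. Of the subunits of the CGRP receptor, Calcrl had 354.5 ± 9.55 CPM (SD, n = 6) with LPS and 354.9 ± 7.84 CPM (SD, n = 5) with CGRP, and Ramp1, the subunit that makes Calcrl a CGRP receptor, had 0 CPM in all 11 cultures.

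**Figure D5:**
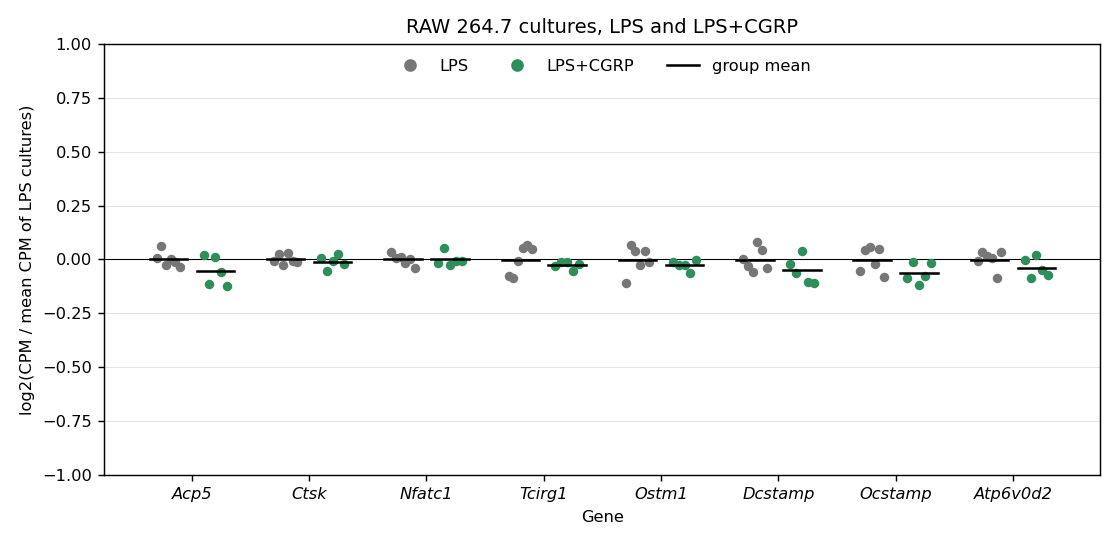
log2 of the CPM of each RAW264.7 culture over the mean of the LPS cultures, for the 8 genes with reads in every culture, with LPS cultures in grey, LPS+CGRP cultures in green and bars for group means. All cultures lie close to 0 on an axis from −1 to 1, and the groups overlap for each gene.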

How the data were processed

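RNA of rat periodontal defect tissue was sequenced on a DNBSEQ platform, and for it the submitters' notes name HISAT, Bowtie2 and the build mRatBN7.2. The authors deposited expected counts per gene in 2 tables, of which 37.0% of the values were whole, and these were rounded here. For RAW264.7 the notes name cutadapt, STAR and mm10. The deposited macrophage values (unit signal) were reads multiplied by 1 factor per run by the authors, and the 2 runs of a culture were summed.

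Rats were tested with edgeR 4.0.16 (quasi-likelihood, TMM, filterByExpr, Benjamini-Hochberg adjustment, threshold 0.05), each comparison on its own groups, and the pooled and interaction fits on all 23 rats. Macrophages were tested with limma 3.58.1 (trend) on log2 of TMM-scaled CPM plus 0.5. Standard errors of edgeR fold changes were taken from the F statistic. DESeq2 1.42.0, other scalings and filters, and leaving out each sample were alternatives, with edgeR and DESeq2 run on whole reads recovered within 0.1 reads for the macrophages. The tests were tried on simulated data.

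The 10 genes were named in every comparison, together with up to 3 genes of smallest p from each pathway list and the 10 genes most like their mean; other named genes, and the gene ratios, were chosen after their values were seen. The members and lists were chosen with earlier results of these data known. Limits from 0 counts cover counting error only. Some genes that these rules select are not reported here.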

Additional observations from a re-analysis of the deposited data

Results flagged for a closer look

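In 66 groups of 4 to 6 samples, the level of each of the 10 genes was compared with the rest of its group, and 2 single samples stood far from the others, where chance gives about 1 in 20 groups. Nfatc1 had 417.0 CPM in LPS+CGRP replicate 2, a gap to the nearest culture of 0.752 of the range of its group. Atp6v0d2 had 42.2 CPM in LPS replicate 5, a gap of 0.658 of the range. Both are macrophage cultures, and no rat stood apart by this measure.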

How the results depend on the processing

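Under alternatives other than leaving out a sample, 752 values kept direction and side of the threshold, 19 turned sign, 5 passed the threshold only there and 4 lost it; the cause was not tested. None of the 10 genes was called for the nerve under any of them. From day 3 to day 14 without the nerve, where 2 genes were called, DESeq2 called 4, scaling by library total 0, no filter on low counts 1, the fit of all 23 rats 3, the replicate block 2 (Acp5 gained, Ctsk lost), and leaving out single rats 0 to 4; from day 3 to day 7 DESeq2 called 1.

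Same-numbered rats gave 33 correlations from −0.358 to 0.415 (9 over 0.1), and same-numbered cultures 5 from −0.0949 to 0.143 (2 over 0.1). In 0 of 10 comparisons was every such correlation over 0.1. Between the nerve groups of day 7 they were 0.17, 0.0309, 0.197 and 0.314, and 3 of 4 samples were most like the one with their own number. With the replicate number as a block (replicate block), 2 of the 10 genes had an unadjusted p under 0.05 for the nerve on day 14 (median log2 1.24) and 2 over all days (0.78), and signs turned for Ocstamp (−0.01) and Calcr (−0.63) on day 3, Tcirg1 (−0.04, day 7 over 3, nerve+), Calcr (0.26, day 14 over 7, nerve+), Nfatc1 (0.07) and Atp6v0d2 (0.69) (day 14 over 3, nerve+), and Oscar (−0.09, day 7 over 3, nerve−). Library totals turned Calcr (0.12, day 14 over 7) and Nfatc1 (0.02, day 14 over 3) with the nerve, and Nfatc1 (−0.07, day 14 over 7) and Tcirg1 (−0.06, day 14 over 3) without it, and the fit of all 23 rats turned Nfatc1 (−0.02, day 14 over 7, nerve+). The deposited macrophage scaling, in which differences in depth are not removed, gave Acp5 0.06, Ctsk 0.11, Tcirg1 0.09, Ostm1 0.09, Dcstamp 0.07, Ocstamp 0.06 and Atp6v0d2 0.08.

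Leaving out single rats turned the sign in these log2 ranges. Acp5 −0.46 to 1.12, Ctsk −0.27 to 1.51, Nfatc1 −0.20 to 0.51, Ostm1 −0.04 to 0.33, Dcstamp −0.42 to 1.07, Ocstamp −0.60 to 1.49, Atp6v0d2 −0.49 to 1.93, Calcr −0.71 to 2.46 and Oscar −0.35 to 0.07 for the nerve on day 3. Tcirg1 −0.14 to 0.53, Ostm1 −0.03 to 0.29 and Calcr −0.33 to 2.03 for day 7 over 3 with the nerve. Acp5 −0.33 to 0.57, Nfatc1 −0.20 to 0.15, Ostm1 −0.18 to 0.10, Ocstamp −0.31 to 0.11 and Calcr −0.39 to 0.28 for day 14 over 7 with the nerve. Nfatc1 −0.24 to 0.37, Ostm1 −0.08 to 0.23, Ocstamp −0.04 to 1.64, Atp6v0d2 −0.79 to 1.23 and Calcr −0.38 to 1.98 for day 14 over 3 with the nerve. Oscar −0.59 to 0.52 for day 7 over 3 without the nerve. Ctsk −0.18 to 1.29, Ostm1 −0.30 to 0.23, Dcstamp −0.18 to 1.22 and Atp6v0d2 −0.66 to 0.62 for day 14 over 7 without the nerve. Tcirg1 −0.09 to 0.52 for day 14 over 3 without the nerve.

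Over all genes, edgeR and DESeq2 called 0 and 95 for the nerve on day 14, 1002 and 2807 (day 7 over 3) and 871 and 3377 (day 14 over 3) with it, and 1524 and 3217 (day 7 over 3) without it; the block left 122, 0 and 2 of these day comparisons. Depth limits Calcr and Ocstamp most, with as few as 5 and 17 counts in a rat.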
